A study of Mus musculus with 8 samples.

Results

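The cathepsins are a group of mostly lysosomal proteases, and 10 of their genes were followed here in RAW264 cells, a mouse macrophage-like cell line. The members were Ctsa, Ctsc, Ctsd, Ctse, Ctsf, Ctsh, Ctsk, Ctsl, Ctss and Ctsz, and each was looked up by its gene symbol in the annotation of the array. A probe set was found for 9 of the 10 members among 22206 probe sets, and Ctsd was not analysed here. The family was chosen by earlier results of these data, namely the KO minus WT difference of Ctsh with IL-4. Its values in that comparison are therefore a description, without a test.

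RNA of 4 clones was hybridized to 8 Clariom S arrays. Each clone contributed a pair of arrays, one of cells kept without IL-4 and one of cells given IL-4 for 48 h. WT1 and WT2 are Gpr137b +/+ clones and KO1 and KO2 are Gpr137b -/- clones, all made from Raw264 cells with CRISPR/Cas9, so that each of the 4 groups holds 2 arrays. Gpr137b encodes an orphan receptor-like membrane protein. For IL-4 treatment the medium was replaced with one without serum. Whether the untreated cells also had their medium replaced is not stated, and the effects of IL-4 and of the medium cannot be told apart. Each genotype rests on 2 clones, and a difference between genotypes cannot be told apart from one between clones. Signals are the log2 of the deposited intensities, and a signal was called above background if it exceeded the 95th percentile of the antigenomic control probe sets of its array, which lay between 6.64 and 6.78. The arrays do not separate fewer expressing cells from less RNA per cell. Levels of different genes were not compared, except in the sums of markers and in choosing named genes by mean signal.

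Gpr137b itself read 11.50 (WT1), 11.67 (WT2), 10.24 (KO1) and 11.12 (KO2) on the untreated arrays, lower in both KO clones (log2 difference -0.90, adjusted p = 0.993 from limma). On the treated arrays it read 10.32, 11.93, 10.00 and 10.82, and the genotypes overlapped through WT1. Where the edit lies relative to this probe set is not stated, so the probe set may not check the knockout. Of 9 macrophage markers 8 were measured, and 7 of them were above background on all arrays. The 4 measured fibroblast markers and the 4 measured T or B cell markers were below background on all arrays, and of the 4 measured dendritic cell markers Itgax alone was above it on any array, on the 4 arrays with IL-4.

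Cathepsins are made as inactive precursors, sorted to the lysosome by the mannose 6-phosphate route, and trimmed there to the active form at acid pH. Most are cysteine proteases, among them Ctsc, Ctsf, Ctsh, Ctsk, Ctsl, Ctss and Ctsz. Ctsd and Ctse are aspartic proteases, and Ctsa is a serine carboxypeptidase. In macrophages they break down ingested protein, and Ctss also cuts the invariant chain before antigens are presented. Cystatins are the inhibitors of the cysteine cathepsins. The transcription factor Tfeb and its relatives bind an E-box in the promoters of many lysosomal genes.

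RefSeq promoter windows of GRCm38.p6, from 250 bases before to 50 after a start site, were at hand for 8 of the 10 members in 9 windows. The E-box CACGTG, which reads the same on both strands, was in 4 of these 9 windows, one each of Ctsa, Ctsd, Ctsf and Ctsl, and in 7.15% of all 32851 windows. The core GAGGAAG of the macrophage factor PU.1, searched on both strands, was in those of Ctsc, Ctsk and Ctss, and in 13.6% of all windows. The Stat6 motif, TTC and GAA with any 4 bases between them, which also reads the same on both strands and was searched because Stat6 carries the signal of IL-4, was in no member window and in 6.95% of all windows. No motif overlapped another in the windows shown. Windows are shown for Ctsz (chr2:174438990-174439289, minus strand), Ctss (chr3:95526536-95526835, plus strand) and Ctsc (chr7:88277835-88278134, plus strand), the members whose signal moved the same way with IL-4 in all 4 clones. That of the cystatin gene Cst7 (chr2:150570165-150570464, plus strand) is shown because it passed the test with IL-4, and that of Ctsa (chr2:164833523-164833822, plus strand) for its pair of E-boxes. Capitals mark a match to one of the 3 motifs. A match describes the letters and does not show that a factor binds.
Ctsz: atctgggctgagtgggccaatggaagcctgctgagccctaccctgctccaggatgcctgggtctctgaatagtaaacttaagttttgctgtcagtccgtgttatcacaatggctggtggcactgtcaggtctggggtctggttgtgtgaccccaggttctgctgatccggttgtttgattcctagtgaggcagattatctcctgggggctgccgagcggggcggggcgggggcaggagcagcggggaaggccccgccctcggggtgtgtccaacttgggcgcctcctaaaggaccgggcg
Ctss: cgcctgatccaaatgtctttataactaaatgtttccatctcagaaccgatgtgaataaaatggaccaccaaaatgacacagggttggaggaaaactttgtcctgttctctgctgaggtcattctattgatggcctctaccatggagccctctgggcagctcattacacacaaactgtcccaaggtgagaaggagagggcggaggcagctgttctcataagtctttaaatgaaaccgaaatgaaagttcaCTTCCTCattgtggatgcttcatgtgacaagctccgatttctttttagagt
Ctsc: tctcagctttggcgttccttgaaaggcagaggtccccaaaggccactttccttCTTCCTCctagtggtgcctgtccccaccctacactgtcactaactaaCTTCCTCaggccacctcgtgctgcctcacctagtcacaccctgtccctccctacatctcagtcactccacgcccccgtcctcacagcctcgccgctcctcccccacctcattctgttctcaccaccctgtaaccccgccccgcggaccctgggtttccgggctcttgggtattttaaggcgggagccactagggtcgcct
Cst7: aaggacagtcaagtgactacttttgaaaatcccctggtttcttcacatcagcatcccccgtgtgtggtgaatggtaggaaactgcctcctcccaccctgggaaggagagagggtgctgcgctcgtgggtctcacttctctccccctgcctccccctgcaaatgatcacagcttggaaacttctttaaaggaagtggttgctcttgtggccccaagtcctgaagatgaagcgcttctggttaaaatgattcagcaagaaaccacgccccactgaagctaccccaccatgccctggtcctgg
Ctsa: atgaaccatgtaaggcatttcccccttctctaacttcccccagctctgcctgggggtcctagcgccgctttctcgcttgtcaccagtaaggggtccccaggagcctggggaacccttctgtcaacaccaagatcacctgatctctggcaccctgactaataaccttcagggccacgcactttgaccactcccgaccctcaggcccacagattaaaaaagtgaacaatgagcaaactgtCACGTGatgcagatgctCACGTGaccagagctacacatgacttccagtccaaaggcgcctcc

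Of the 9 measured members, 8 were above background on all 8 arrays and Ctsk on 3 of them. The signal of Ctsa was the steadiest, with a range of 0.46 over the 8 arrays, which 88.5% of all probe sets reached or passed. Ctse had the widest range, of 4.02, followed by Ctsh with 2.64 and Ctsf with 2.02, and 0.504%, 1.64% and 3.25% of all probe sets had at least such a range. These 3 genes varied in different ways. Ctsh separated the genotypes, Ctse separated all 4 clones, and Ctsf was low in WT2.

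**Figure D1:**
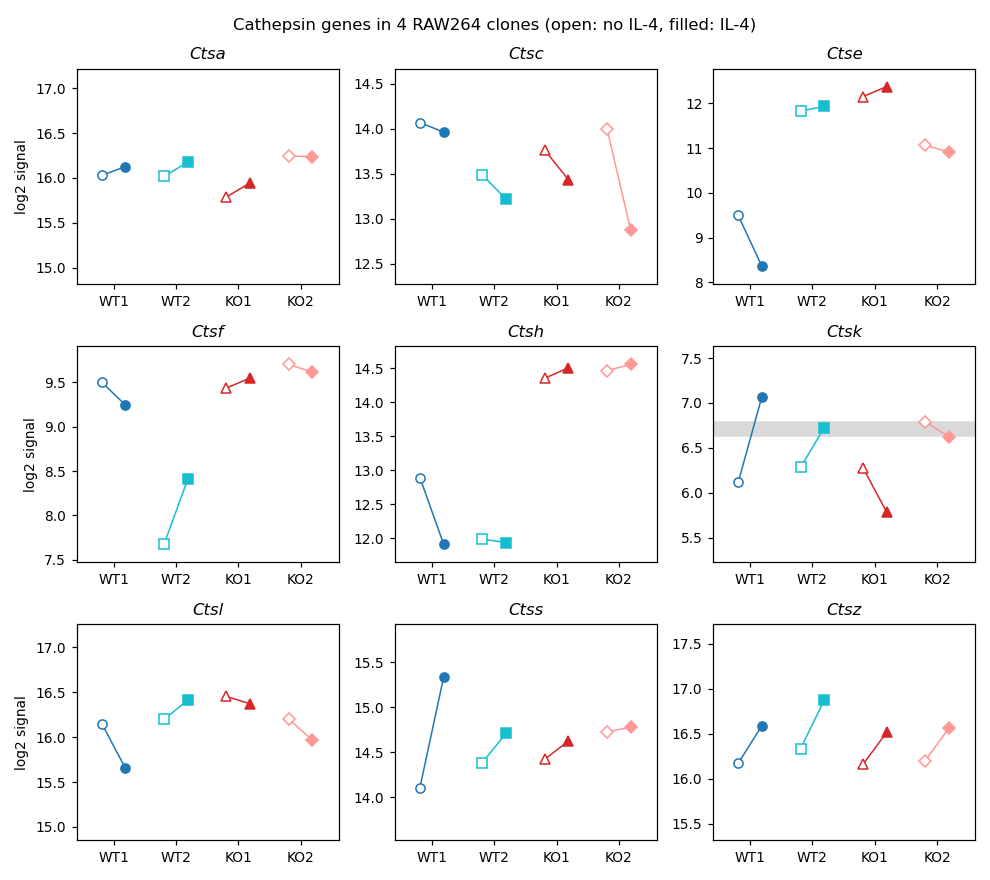
Log2 signal (vertical axis, scaled for each gene) of the 9 measured cathepsin genes in the 4 clones (horizontal axis); open symbols are arrays without IL-4, filled symbols arrays with IL-4, and the grey band is the background of 6.64 to 6.78. All 4 KO arrays of Ctsh lie above all WT arrays, Ctse differs from clone to clone, and Ctsk lies at background.

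Ctsh, which encodes the aminopeptidase cathepsin H, was the member that differed most between the genotypes. Untreated, it read 12.89 (WT1), 11.99 (WT2), 14.35 (KO1) and 14.46 (KO2). The arrays with IL-4 read 11.91 (WT1), 11.93 (WT2), 14.51 (KO1) and 14.55 (KO2). Both KO clones were thus above both WT clones with either treatment, and the KO clones lay within 0.11 of each other without IL-4 and within 0.05 with IL-4. The one array that stood off its group was WT1 without IL-4, which read 0.90 above WT2.

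Without IL-4 the mean of Ctsh was 12.44 ± 0.64 in WT and 14.41 ± 0.08 in KO cells (SD, n = 2 clones each), a 3.92-fold difference (log2 difference 1.97, 95% interval 1.30 to 2.64). This did not pass the threshold of 0.05 over all probe sets (adjusted p = 0.175 from limma), where 0.018% of all probe sets passed. The interval and the p-value use a spread pooled over the 4 groups, which includes the IL-4 arrays by which Ctsh was chosen. Those arrays had small SDs (0.02 in WT and 0.03 in KO cells) and came from the same clones. The test without IL-4 is therefore not independent of the choice, nor are the fits with a clone left out. Without WT1 the log2 difference was 2.42 and it passed (adjusted p = 0.0148 from limma, in a fit where WT2 stands alone and is assumed to vary like the other groups). Leaving out KO1 or KO2 gave log2 differences of 2.03 and 1.91 with an adjusted p of 1 from limma. With IL-4 the means were 11.92 ± 0.02 and 14.53 ± 0.03 (SD, n = 2 clones each), a difference of 2.61 on the log2 scale or 6.10-fold. This comparison led to the choice of Ctsh, so its count of 1 of 9 members under the threshold, Ctsh, was fixed by that choice and nothing is read from it. The share under the threshold was 0.0315% of all probe sets (0.027% higher and 0.0045% lower in KO cells, and 3.53% at an unadjusted p under 0.05). Ctsh was not under it without the dimmest 40% of probe sets, without KO1 or without KO2, where its log2 difference was 2.58 to 2.63. Of the other members, Ctsf was also higher in both KO than in both WT clones with IL-4, and such an order without overlap was found for 17.9% of all probe sets. All 4 KO arrays lay above all 4 WT arrays for Ctsh alone among the members. This order includes the arrays by which Ctsh was chosen and is a description. It was found for 2.36% of all probe sets, and the opposite order for no member and 2.54% of all probe sets. Without IL-4 both KO clones were above both WT clones for 3 of 9 members, against 14.1% of all probe sets. The smallest KO signal exceeded the largest WT signal by 1.46 for Ctsh, but by 0.001 for Ctsl and 0.037 for Ctss.

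The genes next to Ctsh on chromosome 9 did not share its difference. Of its 10 nearest named and measured genes, 6 were above background on any array, and their KO minus WT difference lay between -0.03 and 0.40 without IL-4 and between -0.07 and 0.36 with IL-4. Among 5325 other named probe sets with a range of at least 1 on the log2 scale, the 5 most like Ctsh over the 8 arrays were Mgst2 (Pearson's r = 0.992), Prkch (0.977), Sod1 (0.974), Arsb (0.970) and Tsc22d1 (0.960). Mgst2 encodes a microsomal glutathione S-transferase, Prkch a protein kinase C, Sod1 cytosolic superoxide dismutase and Arsb the lysosomal enzyme arylsulfatase B. The 8 arrays are 4 clones in 2 treatments, so these values describe a shared split by genotype and carry no test. Sod1 read 12.43 to 13.17 on the WT arrays and 16.81 to 17.23 on the KO arrays. Arsb, the lysosomal gene among them, read 12.52 to 12.84 on the WT arrays and 13.26 to 13.65 on the KO arrays.

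The other members showed smaller genotype differences or ones within the spread of the clones. Without IL-4 none of the 9 members passed the threshold, and 1 had an unadjusted p under 0.05 from limma, which was Ctsh, against 4.41% of all probe sets. The p-value of Ctsh draws in part on the spread of the IL-4 arrays by which it was chosen. On the log2 scale the members had a median KO minus WT difference of 0.33 in the absence of IL-4, against 0.00 over all probe sets. In its presence the median was -0.06, against 0.02. For Ctsa, the protective protein of a lysosomal complex with galactosidase and neuraminidase, the difference without IL-4 was -0.01 (95% interval -0.53 to 0.52). For Ctsl, the broad endopeptidase cathepsin L, it was 0.15 (-0.51 to 0.81), and for Ctsz, the carboxypeptidase cathepsin X, -0.07 (-0.54 to 0.40). These intervals leave out changes of over 2-fold for each of the 3 genes. The interval of Ctse, -1.67 to 3.55, leaves out little.

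**Figure D2:**
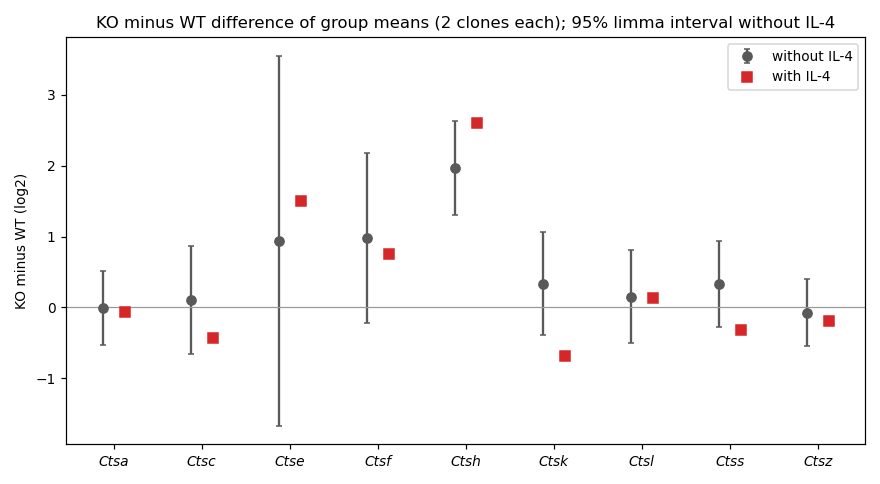
KO minus WT difference of the group means (log2, vertical axis, 2 clones for each genotype) of the 9 measured cathepsin genes; circles are without IL-4 with 95% intervals from limma, and squares are with IL-4 and given as a description. Ctsh stands at 1.97 and 2.61, and the interval of Ctse without IL-4 is the widest.

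Ctse, the endosomal aspartic protease cathepsin E, followed the clone rather than the genotype or the treatment. In untreated cells it read 9.50 (WT1), 11.83 (WT2), 12.15 (KO1) and 11.06 (KO2). After IL-4 the values were 8.36 (WT1), 11.93 (WT2), 12.38 (KO1) and 10.91 (KO2). WT1 was the lowest clone with either treatment and KO1 the highest, and the order of the 4 clones was the same on both sets of arrays. WT2 was 5.04-fold above WT1 without IL-4 and 11.9-fold with IL-4, and 0.567% and 0.140% of all probe sets had a gap of at least that size. KO2 was 2.13-fold below KO1 without IL-4 and 2.75-fold with IL-4. Ctse was the only member at least 2-fold apart between the clones of a genotype in both treatments, in WT as in KO cells, against 2.31% and 0.365% of all probe sets. Of the 10 genes nearest to it on chromosome 1, 6 were above background, and WT2 read below WT1 for all of them, by 0.23 to 0.93 without IL-4 and by 0.03 to 1.88 with IL-4. Within the clones the IL-4 change was -1.14 (WT1), 0.10 (WT2), 0.23 (KO1) and -0.15 (KO2), so WT1 alone changed by over 2-fold.

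Ctsf, the gene of cathepsin F, was low in one WT clone. The untreated clones read 9.50 (WT1), 7.68 (WT2), 9.44 (KO1) and 9.70 (KO2). The same clones given IL-4 read 9.24 (WT1), 8.41 (WT2), 9.55 (KO1) and 9.61 (KO2). WT1 thus lay with the KO clones without IL-4, and WT2 lay 3.55-fold below WT1. The KO minus WT difference without IL-4 was 0.98 (95% interval -0.23 to 2.18, adjusted p = 0.993 from limma). Without WT1 it was 1.89 and passed (adjusted p = 0.0321 from limma), with WT2 as the lone WT clone. The difference of Ctsf between genotypes therefore rests on WT2.

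**Figure D3:**
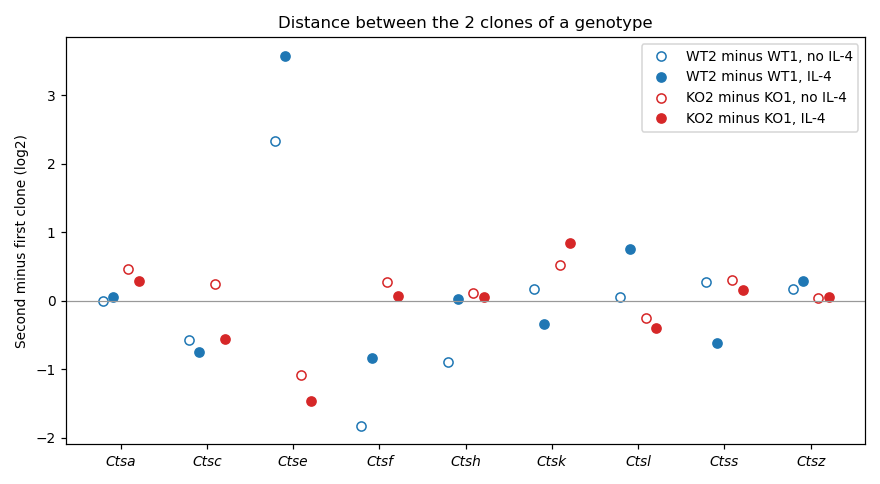
Second minus first clone of a genotype (log2, vertical axis) for the 9 measured cathepsin genes; blue is WT2 minus WT1, red KO2 minus KO1, open symbols without and filled symbols with IL-4, each from single arrays. Ctse is farthest from 0 in both genotypes, with 2.33 and 3.57 between the WT clones, and Ctsf is low in WT2.

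IL-4 moved no member past the threshold in either genotype. In WT cells 0 of 9 members passed and 2 had an unadjusted p under 0.05 from limma, against 0.036% and 3.85% of all probe sets. In KO cells 0 of 9 passed and 0 had an unadjusted p under 0.05, against 0.0315% and 2.77%. These counts come from the fit without the clone as a block. With it as a fixed or random block 0 members passed. Of all 22206 probe sets, 35 and 13 passed in WT cells and 25 and 13 in KO cells. In KO cells Ctsc had an unadjusted p under 0.05 (0.0228 and 0.0403 from limma). In WT cells Ctss (0.0207 and 0.0134) and Ctsk, at background (0.0193 and 0.0389), did so from limma. Ctsz did so with the random block alone (0.0344 from limma). The share of all probe sets at that p was not counted for these fits, so nothing is read from these members. The most precise comparison took the change within each of the 4 clones, and in it 0 of 9 members passed while 2 had an unadjusted p under 0.05, against 0.766% (0.486% higher and 0.279% lower) and 8.23% of all probe sets. The median change of the members over the 4 clones was 0.10, and that of all probe sets -0.01. Ctsz and Ctss read higher with IL-4 in all 4 clones and Ctsc read lower in all 4, against 7.93% and 8.44% of all probe sets.

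Some macrophage markers passed the threshold with IL-4, and no dendritic cell marker did. Over the 4 clones 1 of 8 measured macrophage markers passed as higher and 1 as lower, against 0.486% and 0.279% of all probe sets. Csf1r, Spi1, Lyz2, Itgam, Cd14 and Ptprc did not pass. Of the 4 measured dendritic cell markers 0 passed. Adgre1, a surface marker of mature macrophages, rose by 1.01 over the 4 clones (adjusted p = 0.0291 from limma), and Aif1 fell (adjusted p = 0.0294 from limma), from 7.35 to 8.36 without IL-4 to 5.75 to 7.23 with IL-4, where both WT arrays were below background. Itgax, which encodes CD11c, was below background on every untreated array and read 10.64 (WT1), 7.19 (WT2), 6.86 (KO1) and 7.01 (KO2) on the treated ones (adjusted p = 0.13 from limma over the 4 clones). Its highest value was thus in WT1, as was that of Ctss. The other 3 dendritic cell markers, Flt3, Zbtb46 and Xcr1, stayed below background. The summed level of the macrophage markers was 20.02 to 20.11 on the arrays without IL-4 and 20.06 to 20.12 on those with it. This sum is mostly Lyz2, Spi1 and Itgam, with mean signals of 18.92, 18.11 and 17.49. It does not show the changes of Adgre1 and Aif1, with mean signals of 12.01 and 7.25. The part of these changes in the values of the members was not tested.

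Ctsz showed the most even change. It read 16.17 (WT1), 16.33 (WT2), 16.16 (KO1) and 16.20 (KO2) without IL-4. IL-4-treated cells read 16.59, 16.87, 16.52 and 16.57 in the same order, so every array with IL-4 lay above every array without it. The share of all probe sets with such a separation was not counted, so nothing is read from it. The change was 0.42 (WT1), 0.54 (WT2), 0.36 (KO1) and 0.36 (KO2). The mean over the 4 clones was 0.42, or 1.34-fold (95% interval 0.12 to 0.72, unadjusted p = 0.0124, adjusted p = 0.361 from limma). With a spread prior that follows the signal level (eBayes with trend and robust) Ctsz passed (adjusted p = 0.00808 from limma), and in the other alternatives, 1 clone left out included, it did not, with adjusted p of 0.212 to 0.872 from limma.

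Ctss, the gene of cathepsin S, had its largest change in WT1. It read 14.11 (WT1), 14.38 (WT2), 14.42 (KO1) and 14.73 (KO2) without IL-4. The treated clones read 15.34, 14.71, 14.62 and 14.78. The change was 1.23 (WT1) and between 0.05 and 0.33 in the other 3 clones. In WT cells the mean change was 0.78, or 1.71-fold (unadjusted p = 0.0178, adjusted p = 1 from limma), and in KO cells 0.13 (95% interval -0.48 to 0.73). The KO minus WT difference of the changes was -0.65 (95% interval -1.51 to 0.21, adjusted p = 1 from limma).

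Ctsc, whose product cathepsin C trims and activates granule proteases of immune cells, read lower with IL-4. Untreated arrays gave 14.07 (WT1), 13.49 (WT2), 13.76 (KO1) and 14.00 (KO2). The values after 48 h of IL-4 were 13.96, 13.22, 13.43 and 12.87. Over the 4 clones the mean change was -0.46 (95% interval -0.89 to -0.03, unadjusted p = 0.0387, adjusted p = 0.571 from limma). The change in KO2, of -1.13, was over 3 times that of any other clone.

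Ctsk, the collagen-degrading cathepsin of osteoclasts, lay at background. Untreated clones gave 6.12 (WT1), 6.28 (WT2), 6.28 (KO1) and 6.79 (KO2). In the presence of IL-4 the signals were 7.07, 6.73, 5.79 and 6.62. Only WT1 and WT2 with IL-4 and KO2 without IL-4 were above background. In WT cells the mean with IL-4 was at least 1.18-fold above the background of the arrays without IL-4, a bound that was not tested. WT2 with IL-4 read 6.73, against a background of 6.70 on its own array. The IL-4 change in WT cells did not pass (adjusted p = 1 from limma). Neither array of WT cells without IL-4 nor of KO cells with IL-4 was above background, so neither a change in KO cells nor a difference of the changes between the genotypes has a size. RAW264 cells can form osteoclasts, and of 7 osteoclast markers 5 were below background on all 8 arrays, among them Acp5, Calcr and Mmp9, while Atp6v0d2 and Dcstamp were above it on all. Over the 4 clones Atp6v0d2 rose by 1.60 and Dcstamp fell by 1.42 on the log2 scale with IL-4 (adjusted p = 0.00566 and 0.0141 from limma). The summed level of the list was 15.17 to 15.81 without and 16.41 to 16.64 with IL-4 in WT cells, and 13.88 to 14.16 and 15.43 to 15.48 in KO cells. This sum is mostly Atp6v0d2, which alone read 13.32 to 16.55 over the 8 arrays, and it does not show the fall of Dcstamp. The part of osteoclast-like cells in the values of Ctsk was not tested. Ctsk and Ctss are neighbours on chromosome 3.

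Ctsa and Ctsl had no common direction with IL-4. Ctsa changed by 0.10 (WT1), 0.16 (WT2), 0.16 (KO1) and -0.01 (KO2), with a mean of 0.10 (95% interval -0.20 to 0.40). Ctsl changed by -0.50, 0.22, -0.08 and -0.23, with a mean of -0.15 (95% interval -0.51 to 0.21). Both intervals exclude a 2-fold change with IL-4. Ctsf changed by -0.26, 0.73, 0.11 and -0.09, with a mean of 0.13 (95% interval -0.29 to 0.54). Ctsh changed by -0.98 (WT1) and -0.05 (WT2), and by 0.16 (KO1) and 0.09 (KO2).

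**Figure D4:**
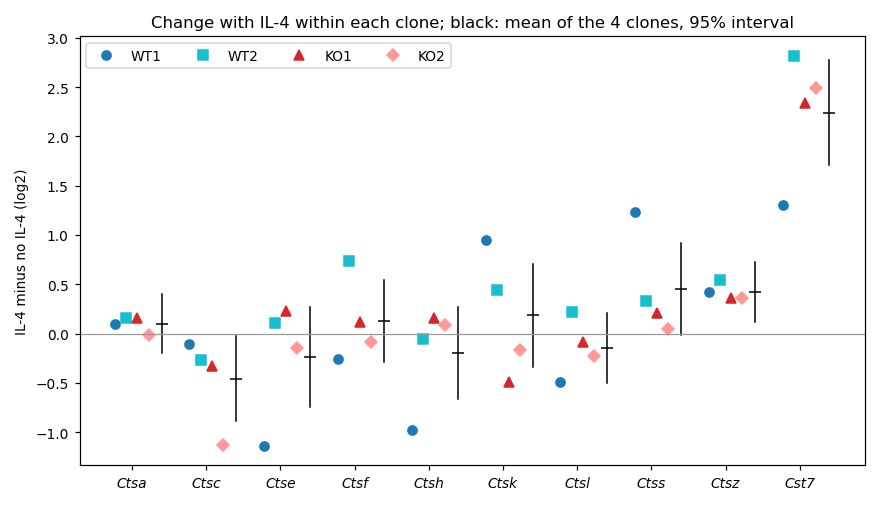
Change with IL-4 within each clone (log2, vertical axis) for the 9 measured cathepsin genes and the inhibitor gene Cst7; coloured symbols are the 4 clones, and black bars are the mean over the clones with its 95% interval from limma. Ctsz lies between 0.36 and 0.54 in all 4 clones, and Cst7 between 1.31 and 2.82.

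Whether genotypes responded differently to IL-4 was tested directly. No probe set passed (0 of 9 members, 0% of all probe sets), and at an unadjusted p under 0.05 from limma there were 1 of 9 members, Ctsk, with its values at background, and 1.52% of all probe sets.

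The other cathepsin genes were mostly below background. Of 13 measured, Ctsb and Ctso were above background on all arrays and Ctsr on 1, and the other 10 were below it on all arrays, most of them placental cathepsins of chromosome 13. Ctsb, the gene of the abundant lysosomal cathepsin B, read between 18.19 and 18.51 on the 8 arrays, and Ctso between 10.23 and 10.65. None passed the threshold in any comparison. The change of Ctsb with IL-4 over the 4 clones was 0.09 (95% interval -0.21 to 0.39).

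Among the inhibitors, Cst7 rose with IL-4 in every clone. Cst7 encodes cystatin F, an inhibitor made by immune cells that reaches the lysosome and acts on cathepsin C and other cysteine cathepsins. Arrays without IL-4 gave 11.23 (WT1), 10.62 (WT2), 12.29 (KO1) and 12.12 (KO2). The IL-4 arrays gave 12.53, 13.44, 14.64 and 14.61, so every array with IL-4 was above every array without it. For this separation too the share of all probe sets was not counted. The rise was 1.31 (WT1), 2.82 (WT2), 2.34 (KO1) and 2.49 (KO2), and the mean over the 4 clones was 4.73-fold (log2 change 2.24, 95% interval 1.71 to 2.77, adjusted p = 0.00416 from limma). Cst7 was the 1 of 13 measured inhibitor genes that passed as higher in this comparison, and 0 passed as lower. Of all probe sets 0.766% passed, 0.486% as higher and 0.279% as lower. At an unadjusted p under 0.05 from limma there were 5 of the 13, in either direction, against 8.23% of all probe sets. Of the 13, 10 were above background on any array. Within a genotype the rise of Cst7 did not pass (log2 change 2.06, adjusted p = 0.187 in WT cells, and 2.42, adjusted p = 0.0936 in KO cells, from limma). Without WT1 the change in WT cells was 2.82, which is that of WT2 alone. In KO cells the rise passed with the spread prior that follows the signal level (adjusted p = 0.0443 from limma). Leaving out WT1 or WT2 kept the change in KO cells at 2.42 and altered only the pooled spread.

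Cst7 also read higher in KO than in WT clones with either treatment, without overlap. Such an order was found for 14.1% of all probe sets without IL-4 and for 17.9% with IL-4. The difference was 1.28 without IL-4 (95% interval 0.53 to 2.03, limma adjusted p = 0.993), and in the presence of IL-4 it was 1.64 (0.88 to 2.39, limma adjusted p = 0.547). Leaving out WT1 brought the former past the threshold (1.58, adjusted p = 0.0438 from limma), and leaving out WT2 the latter (2.09, adjusted p = 0.0157 from limma). Cst3, which encodes the secreted cystatin C, read 17.21 to 17.72 on the WT arrays and 17.98 to 18.15 on the KO arrays. Its KO minus WT difference without IL-4 was 0.59 (95% interval 0.09 to 1.08, adjusted p = 0.993 from limma). Cstb, the cytosolic cystatin B gene, changed by 0.11 with IL-4 over the 4 clones (95% interval -0.22 to 0.43). Stfa2, a stefin A gene with close copies on chromosome 16 whose probes may share signal, ranged from 7.73 (WT1) without IL-4 to 11.78 (KO1) with IL-4 and passed in no comparison.

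**Figure D5:**
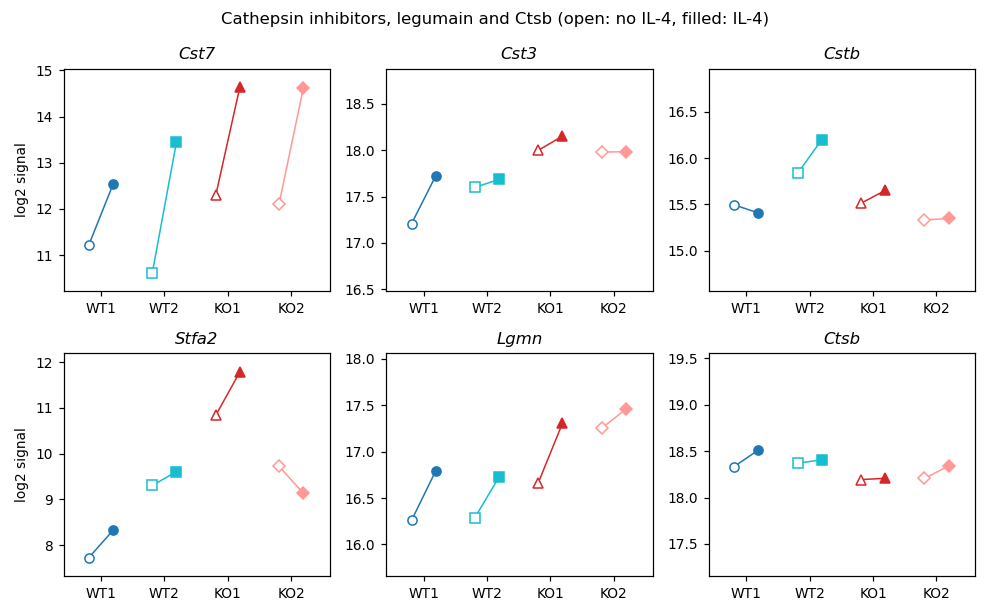
Log2 signal (vertical axis, scaled for each gene) of 4 cathepsin inhibitor genes, of Lgmn and of Ctsb in the 4 clones; open symbols are arrays without IL-4 and filled symbols arrays with IL-4. Cst7 is higher with IL-4 in all 4 clones, from 10.62 to 12.29 without and from 12.53 to 14.64 with IL-4, while Ctsb stays between 18.19 and 18.51.

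Lgmn encodes legumain, the lysosomal protease that processes several cathepsins. It read 16.26 (WT1), 16.29 (WT2), 16.67 (KO1) and 17.25 (KO2) without IL-4, and 16.79, 16.73, 17.31 and 17.46 with IL-4. It was higher with IL-4 in all 4 clones, by a mean of 0.45 (95% interval 0.13 to 0.78, adjusted p = 0.349 from limma), and passed with the spread prior that follows the signal level (adjusted p = 0.0107). None of the 5 measured activation and complex partners, the 7 sorting genes or the 9 regulators passed in any comparison. Of the sorting genes, M6pr, a mannose 6-phosphate receptor, changed by 0.27 with IL-4 over the 4 clones (95% interval -0.08 to 0.63). Mitf, a relative of Tfeb, read 12.14 (WT1), 10.14 (WT2), 11.11 (KO1) and 11.34 (KO2) without IL-4 and 13.49, 10.74, 11.31 and 11.11 with IL-4, so it was highest in WT1. With IL-4 its KO minus WT difference was -0.91 (95% interval -2.85 to 1.03, adjusted p = 1 from limma), and WT1 lay above and WT2 below both KO clones. Without WT2 it was -2.28 (adjusted p = 0.0153 from limma), and without WT1 its sign turned.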

How the data were processed

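RNA of 4 RAW264 clones was hybridized to 8 Clariom S arrays. The authors made the deposited values from CEL files by SST-RMA (the submitters' notes name RMA), and they are linear intensities. A log2 scale had been assumed in planning, and the intensities were log2-transformed before testing. Of 28846 rows, 6640 are control rows. The other 22206 probe sets were tested, of which 19572 have 1 gene symbol in the platform annotation and 2634 are unnamed here. Chromosomes and neighbours were read from RefSeq (GRCm38.p6), and the build behind the array annotation was not stated.

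Groups were compared with limma 3.58.1 in R 4.3.3, with 1 mean per group. For IL-4 over the 4 clones the clone was a fixed block. P-values were adjusted by Benjamini-Hochberg across the whole set of probe sets. The arrays of a clone pair by design, and the correlation of their deviations from the group means was 0.354 (WT) and 0.161 (KO). The main and fixed-block fits were tested on simulated data with equal, independent noise, large effects and no clone effect. These arrays differ from that setting, so nothing is read from it. The members, the lists and the rules were chosen with earlier results of these data known. Named genes were the members, up to 4 genes of a context list with the highest mean signal, and the 5 genes most like Ctsh. Macrophage, dendritic cell and osteoclast markers and Gpr137b were named outside that rule, after their values were seen. Alternatives were quantile normalization, a filter on the dimmest 40%, eBayes with trend and robust, blocking on the clone (fixed or random effect), a 2-fold rule, and leaving out each clone. Group comparisons used 1 spread per probe set, pooled over the 4 groups of 2 arrays and moderated by eBayes. A p-value in KO cells thus also carries the spread of the WT clones, and the reverse. In the fits without a block the 2 arrays of a clone count as independent. For IL-4 over the 4 clones p-values measure the spread of the changes within the 4 clones.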

Additional observations from a re-analysis of the deposited data

Results flagged for a closer look

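Ctsh read lower with IL-4 in both WT clones and higher in both KO clones, with a KO minus WT difference of the changes of 0.64 on the log2 scale (adjusted p = 1 from limma). Its change was -0.98 in WT1 but -0.05 in WT2, so the WT mean rests mostly on WT1. The deposited values of Ctsk ran the other way, with a difference of -1.03 (adjusted p = 1 from limma). Ctsk was not above background on 5 of 8 arrays, among them both of WT cells without IL-4 and both of KO cells with IL-4, so that neither the size nor the direction of this difference can be read. Both stand here because the values of all clones of a genotype moved against all clones of the other. In neither case did the test of the difference pass. The share of all probe sets with such opposite moves was not counted, so nothing is read from this pattern.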

How the results depend on the processing

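The number of members that passed moved in these cases. For KO minus WT without IL-4 (0 members) it was 1, Ctsh, by a 2-fold rule (2-fold or more, unadjusted p under 0.05), and 0 to 2 with 1 clone left out, the 2 being Ctsh and Ctsf without WT1. For KO minus WT with IL-4, where the 1 member, Ctsh, was fixed by the choice, it was 0 without the dimmest 40% of probe sets, and 0 to 1 with 1 clone left out, the 0 without KO1 or without KO2. For the difference of IL-4 effects it was 1, Ctsk, by the 2-fold rule, from values at background, and for IL-4 over the 4 clones 1, Ctsz, by eBayes with trend and robust. The cause was not tested. The clone as a fixed or random replicate block, or no replicate block for IL-4 over the 4 clones, gave the same number of members, 0, in each IL-4 comparison and in the difference; in KO minus WT the random replicate block gave 0 without and 1 with IL-4. A fixed block could not be fitted there, since each clone has 1 genotype. A sign turned for 25 member values, none of which had passed, 24 of them with 1 clone left out. Apart from quantile normalization and leaving out a clone of the genotype compared, no alternative can change a fold, so most values could not turn.

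Counts over all probe sets moved more. IL-4 in WT cells (8) gave 214 by the 2-fold rule, 35 and 13 with the fixed and random block, 5 once the dimmest 40% were dropped, and 0 to 26 with 1 clone left out. IL-4 in KO cells (7) gave 159 by the 2-fold rule, 25 and 13 with those blocks, 12 with trend and robust, 4 once the dimmest were dropped, 4 by quantile normalization, and 0 to 47. The 4 clones together (170) gave 367 with trend and robust, 37 with no block, and 52 to 131. The difference of effects (0) gave 110 by the 2-fold rule. KO minus WT in untreated cells (4) gave 172 by the 2-fold rule, 2 by quantile normalization, 1 once the dimmest were dropped, and 0 to 100. KO minus WT in treated cells (7) gave 176 by the 2-fold rule, 3 once the dimmest were dropped, and 0 to 143. A clone left alone in its genotype is assumed to vary like the others.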
